A study of Mus musculus with 3 samples.

Results

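The Setd1a peaks described here lay at promoters shared by protein-coding genes that are read in opposite directions. A peak was taken when transcription start sites (TSSs) of at least 2 different protein-coding genes, on opposite strands, lay within 1000 bp of its edges, and a TSS under the peak counted as 0 bp away. Of the 6969 peaks of the list, 6911 lay on the 19 autosomes, and 639 of these met the rule, a share of 9.25% (95% Wilson confidence interval 8.59% to 9.95%). They made up 15.4% of the 4144 peaks with any coding TSS within 1000 bp. A further 3460 peaks had coding TSSs of exactly 1 gene and are called single-gene peaks, 45 had several genes on the same strand, and 2767 had no coding TSS in the window.

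The peaks came from CUT & RUN, in which chromatin-bound antibody tethers a nuclease that releases the neighbouring DNA fragments for sequencing. The cells were neural stem cells from the dentate gyrus of 7 to 8 week old Hopx-CreERT2::Setd1a fl/fl::H2B-GFP mice, labelled WT by genotype, and they were kept quiescent with BMP4 and FGF2 without EGF until day 5. There were 2 libraries with an antibody to Setd1a, from independent cultures, and 1 with a control IgG, and all 3 shared this genotype, treatment and day. The deposited list is 1 set of intervals, in which each peak had to be called in both Setd1a libraries, with no height per peak, so no spread between replicates was measured, the depth is unknown, and every confidence interval covers counting error only. The cells are a dissociated culture, and the floxed Setd1a background of the mice was common to the control and the antibody samples. Among genes of neural stem cells, *Sox2*, *Nes*, *Gfap* and *Pax6* had a peak within 1000 bp of a coding TSS, and *Hopx*, *Fabp7* and *Sox9* had none in the list. Of all autosomal protein-coding genes 22.0% had such a peak. No other cell type was compared, so these peaks cannot check the labelled cell type. A peak marks Setd1a signal near a promoter and not transcription, which was not analysed here.

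Setd1a is the catalytic subunit of a COMPASS complex that methylates lysine 4 of histone H3, a mark of active promoters. Where genes on opposite strands start close together, a single stretch of open chromatin can serve both, and such bidirectional promoters are usually CpG islands without a TATA box. They are known for serving housekeeping genes, among them many for DNA repair, mitochondrial proteins and the core histones.

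The sequences between the TSSs are examples of what such a shared promoter can hold, and they do not stand for the whole set. They are given for 11 of the 12 widest peaks among pairs in which both genes belong to functional gene lists and 30 to 300 bases free of any annotated exon separate the TSSs. All are from GRCm38, the build called mm10, read 5′ to 3′ on the plus strand, so that the left end touches the gene read leftwards and the right end the gene read rightwards. Capitals mark exact matches, on either strand, to any of 10 motifs: the GC box GGGCGG bound by Sp and Klf factors, the Ets motif CCGGAAG, the Nrf1 core GCATGCGC, the CCAAT box of Nf-y, the Yy1 motif AAGATGGC, the Creb/Atf site TGACGTCA, the E-box CACGTG, the E2f motif TTCCCGCC, the Znf143 motif ACTACAAT and the TATA box TATAAA. None of these motifs contains another. The 6 pairs without histone genes come first, in order of peak width, and are shown as examples of the short spacers between paired genes.
Atp6v1d/Eif2s1, chr12:78861639-78861818: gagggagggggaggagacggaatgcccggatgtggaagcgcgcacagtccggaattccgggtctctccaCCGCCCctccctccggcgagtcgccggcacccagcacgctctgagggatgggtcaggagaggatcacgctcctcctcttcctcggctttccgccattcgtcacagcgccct
Aurka/Cstf1, chr2:172370536-172370680: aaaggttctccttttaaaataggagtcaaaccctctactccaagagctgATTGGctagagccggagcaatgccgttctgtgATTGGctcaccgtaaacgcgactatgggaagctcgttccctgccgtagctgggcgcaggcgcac
Mrpl43/Twnk, chr19:45006443-45006557: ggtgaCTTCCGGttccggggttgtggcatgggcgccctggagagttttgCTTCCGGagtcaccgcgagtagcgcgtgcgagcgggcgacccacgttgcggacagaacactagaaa
Sdhaf2/Cpsf7, chr19:10525183-10525265: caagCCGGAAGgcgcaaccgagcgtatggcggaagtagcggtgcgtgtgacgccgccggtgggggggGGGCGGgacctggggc
Ddx5/Cep95, chr11:106789186-106789251: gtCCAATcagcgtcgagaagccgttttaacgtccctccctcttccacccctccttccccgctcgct
Mrpl32/Psma2, chr13:14613166-14613239: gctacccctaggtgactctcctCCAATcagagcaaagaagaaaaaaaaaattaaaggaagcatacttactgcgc
Of these 6, 3 held a CCAAT box, 2 a GC box and 2 an Ets motif, and none held TATAAA. Their GC content ran from 41.9% in *Mrpl32*/*Psma2* to 74.7% in *Sdhaf2*/*Cpsf7*. The 2 Ets matches of *Mrpl43*/*Twnk* and the 2 CCAAT boxes of *Aurka*/*Cstf1* lay on the minus strand.

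The other 5 stretches belong to pairs of replication-dependent histone genes, each an H2A gene beside an H2B gene, and are shown apart from the first set.
Hist1h2ac/Hist1h2bc, chr13:23683949-23684198: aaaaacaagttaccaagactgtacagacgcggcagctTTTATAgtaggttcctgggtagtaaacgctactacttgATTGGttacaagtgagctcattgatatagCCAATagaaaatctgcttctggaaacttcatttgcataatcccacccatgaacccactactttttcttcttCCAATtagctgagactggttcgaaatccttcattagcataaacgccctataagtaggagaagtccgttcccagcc
Hist1h2an/Hist1h2bp, chr13:21787219-21787460: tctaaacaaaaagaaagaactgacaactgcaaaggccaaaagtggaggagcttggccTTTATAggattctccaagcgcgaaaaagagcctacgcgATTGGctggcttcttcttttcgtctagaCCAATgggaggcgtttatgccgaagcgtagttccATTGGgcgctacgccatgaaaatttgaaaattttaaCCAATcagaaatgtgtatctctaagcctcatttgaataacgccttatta
Hist1h2ae/Hist1h2bg, chr13:23571221-23571395: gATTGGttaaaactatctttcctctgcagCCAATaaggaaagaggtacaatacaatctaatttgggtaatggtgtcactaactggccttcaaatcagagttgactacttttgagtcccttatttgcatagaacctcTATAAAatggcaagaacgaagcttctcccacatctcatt
Hist1h2ag/Hist1h2bj, chr13:22042945-22043213: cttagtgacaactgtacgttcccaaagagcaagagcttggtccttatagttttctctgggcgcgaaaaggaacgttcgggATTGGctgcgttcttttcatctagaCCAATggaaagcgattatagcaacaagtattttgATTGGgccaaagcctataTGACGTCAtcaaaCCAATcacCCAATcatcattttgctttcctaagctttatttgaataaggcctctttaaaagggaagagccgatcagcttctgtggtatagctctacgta
Hist1h2bl/Hist1h2ai, chr13:21716144-21716421: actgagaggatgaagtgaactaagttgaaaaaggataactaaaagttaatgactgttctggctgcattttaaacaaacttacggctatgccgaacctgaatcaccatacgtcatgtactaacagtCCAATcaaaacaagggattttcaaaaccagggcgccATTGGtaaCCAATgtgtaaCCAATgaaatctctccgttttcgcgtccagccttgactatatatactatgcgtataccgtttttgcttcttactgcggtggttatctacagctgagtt
All 5 histone stretches held CCAAT boxes, between 2 and 5 in each, and 3 held a TATA box. None held a GC box or an Ets motif, and their GC content was 38.3% to 42.6%. *Mrpl32*/*Psma2* of the first set, with 41.9%, lay within that range and also held neither motif. A letter match is a description of the sequence, and binding of these factors was not measured.

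The working name of the set, divergent pairs, held for most of its members. In 527 of the 639 peaks (82.5%, 95% Wilson interval 79.3% to 85.2%) the chosen TSSs pointed away from each other, and in 112 (17.5%) the TSSs pointed towards each other so that the 5′ ends of the genes overlapped. The distance between divergent TSSs had a median of 135 bp, with quartiles of 73.5 and 261 bp, and ran from 1 to 2053 bp. It was at most 300 bp in 420 of the 527 peaks (79.7%) and over 1000 bp in 18. The overlap in the other order had a median of 194 bp and ran from 2 to 965 bp. Each peak was described by the opposite-strand TSSs in its window that lay closest to each other, which need not be those closest to the peak. The choice of TSSs set the order in part: with a single TSS per gene, the divergent share was 68.8%.

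**Figure D1:**
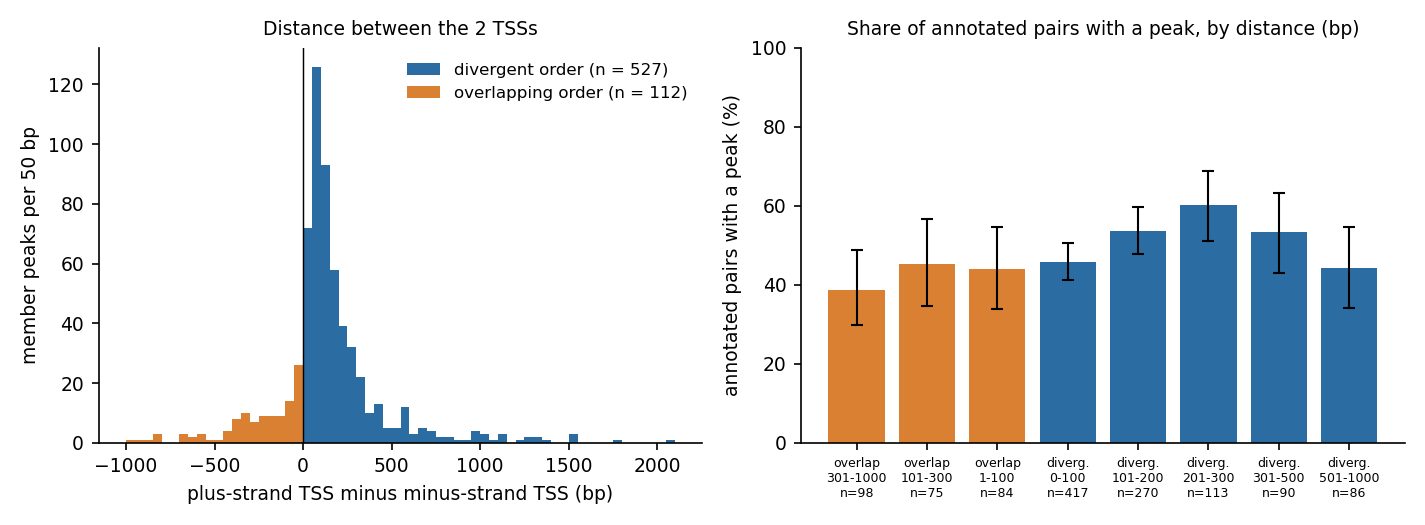
Left, number of member peaks per 50 bp of distance between the TSSs of their pair, in bp, with the 527 peaks in divergent order at positive values and the 112 in overlapping order at negative values. Right, share of annotated opposite-strand pairs with a peak within 1000 bp of both TSSs, in percent, by the distance in bp between the TSSs, with 95% Wilson intervals as error bars; the share is between 38.8% and 60.2% in each class.

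At the short end of the range the TSSs nearly met. The closest TSSs were those of *Dcun1d3*/*Lyrm1* and *Arfrp1*/*Zgpat*, 1 bp apart, followed by *Tpgs2*/*AW554918*, *Ndufs1*/*Eef1b2* and *Slc7a6os*/*Prmt7*, 3 bp apart. The TSSs of *Ndufs1*, which encodes the largest subunit of respiratory complex I, and of *Eef1b2*, an exchange factor of translation elongation, were both covered by a peak of 484 bp at chr1:63176786-63177269. The 5 longest distances were 2053 bp at *Mus81*/*Cfl1*, 1756 bp at *Mbd6*/*Ddit3*, 1549 bp at both *Pfkfb2*/*Yod1* and *Aph1b*/*Gm10647*, and 1542 bp at *Asna1*/*Trir*. *Mus81* encodes a nuclease that resolves DNA repair intermediates and *Cfl1* the actin-severing cofilin, and their peak of 1621 bp at chr19:5487868-5489488 covered only 1 of the TSSs. None of these 5 peaks covered both TSSs, and in all 5 the midpoint of the peak lay between them.

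Many peaks lay to the side of the space between the genes. Of the 639 peaks, 316 (49.5%, 45.6% to 53.3%) covered both TSSs of their pair, 172 (26.9%) covered 1 and 151 (23.6%) covered neither. Some of these 151 lay over other coding TSSs of both strands, as the peak of 457 bp at *Hnrnpk*/*Rmi1* did. At least 1 TSS was covered in 76.4% (72.9% to 79.5%), against 70.8% (69.3% to 72.3%) of the single-gene peaks, which had only 1 gene to cover. These are unlike measures, since any coding TSS of the gene counted for a single-gene peak and only the chosen pair of TSSs for a member. In the 527 divergent members, the midpoint of the peak fell between the TSSs in 147 (27.9%), on the side of the plus-strand gene in 189 (35.9%) and on the side of the minus-strand gene in 191 (36.2%). Plus and minus are arbitrary labels of the reference strands, so the nearly equal numbers follow from symmetry and say nothing about Setd1a. When the midpoint lay beyond a TSS, it lay a median of 166 bp into that gene. It was on the side of the longer gene in 191 of 380 peaks (50.3%, 45.3% to 55.3%) and on the side with the higher CpG ratio in 196 (51.6%, 46.6% to 56.6%), and both intervals include 50%.

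How a peak lay on its pair moved with the distance between the TSSs. Both TSSs were covered in 61.0% of the peaks with TSSs up to 100 bp apart, in 60.4% at 101 to 200 bp, in 45.1% at 201 to 300 bp, in 32.0% at 301 to 500 bp and in 12.3% beyond that. The midpoint fell between the TSSs in 8.50%, 22.1%, 38.0%, 54.0% and 75.4% of the same classes. Part of this order is geometry, since a longer space is harder to span and easier to fall into. The median width of the peaks in these classes ran from 588.5 bp at up to 100 bp to 636 bp beyond 500 bp. In the overlapping order both TSSs were covered in 43.8% of 112 peaks.

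**Figure D2:**
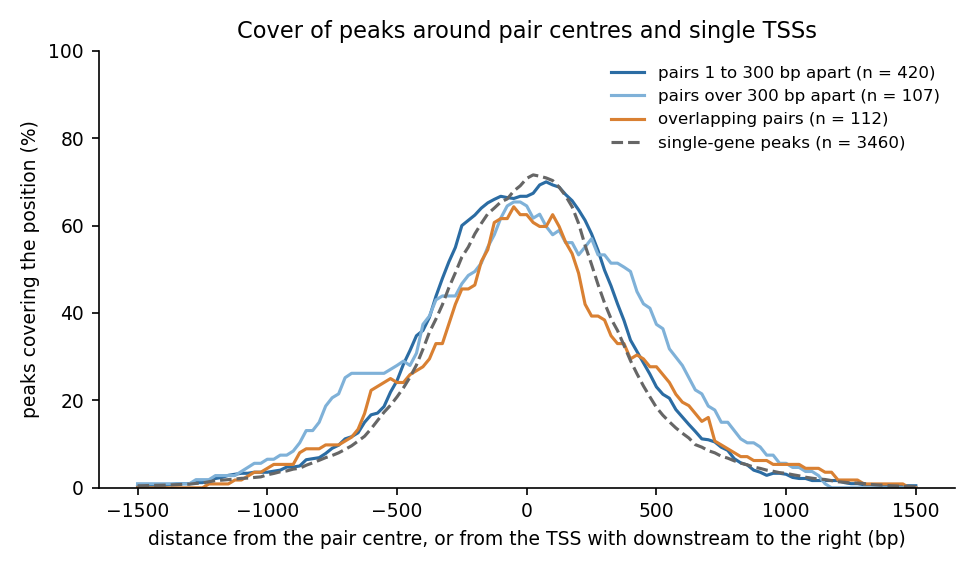
Share of peaks, in percent, that cover each position within 1500 bp of the centre between the TSSs of the pair, or of the TSS for the 3460 single-gene peaks (dashed, downstream to the right). At the centre the cover was 66.7% for divergent pairs up to 300 bp apart, 64.5% for those further apart and 62.5% for overlapping pairs, against 70.8% at the single TSSs. The single TSS was the coding TSS nearest the peak midpoint, while the pair was chosen by the distance between its TSSs.

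The member peaks had a median width of 587 bp, with quartiles of 392 and 831 bp, and ran from 233 to 1922 bp. The single-gene peaks had a median of 520 bp (363 to 749 bp) and the peaks without a coding TSS 390 bp. The width followed the number of TSSs covered, with a median of 739 bp over both TSSs, 515 bp over 1 and 362 bp over none, and wider peaks cover more by construction. Single-gene peaks over any coding TSS of their gene had a median of 596 bp. A width of at least 1000 bp was reached by 12.8% of the members (10.5% to 15.6%), by 9.86% of the single-gene peaks (8.91% to 10.9%) and by 3.83% of the peaks without a coding TSS. The first 2 of these intervals overlap, which does not show that the shares are equal, and no interval of their difference was computed. The rule reaches 1000 bp from each edge of a peak, so a wider peak more easily takes in TSSs of a further gene. Both the median widths and these shares were therefore set in part by the rule.

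Of the widest members, 4 are described here, and each covered both TSSs. The peak at *Zranb3*/*R3hdm1*, where *Zranb3* encodes an annealing helicase that remodels stalled replication forks, was 1922 bp wide (chr1:128102305-128104226). The peak at *Setd3*/*Ccnk* was 1835 bp wide (chr12:108178226-108180060), and these genes encode the actin histidine methyltransferase *Setd3* and cyclin K, the partner of the transcription kinases Cdk12 and Cdk13. Among the other widest members were *Sart3*/*Iscu*, with a U6 snRNP recycling factor and the scaffold of iron-sulfur cluster assembly, with 1742 bp, and *Zfp91*/*Lpxn* with 1688 bp. The 5 narrowest were 233 bp at *Usp35*/*Kctd21*, 235 bp at *Fam221b*/*Tmem8b* and *Klhl9*/*Gm26566*, and 236 bp at *Mboat7*/*Tsen34* and *Eef1akmt3*/*Mettl1*. Of these narrow peaks only that at *Usp35*/*Kctd21* covered a TSS of its pair, and it covered 1.

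**Figure D3:**
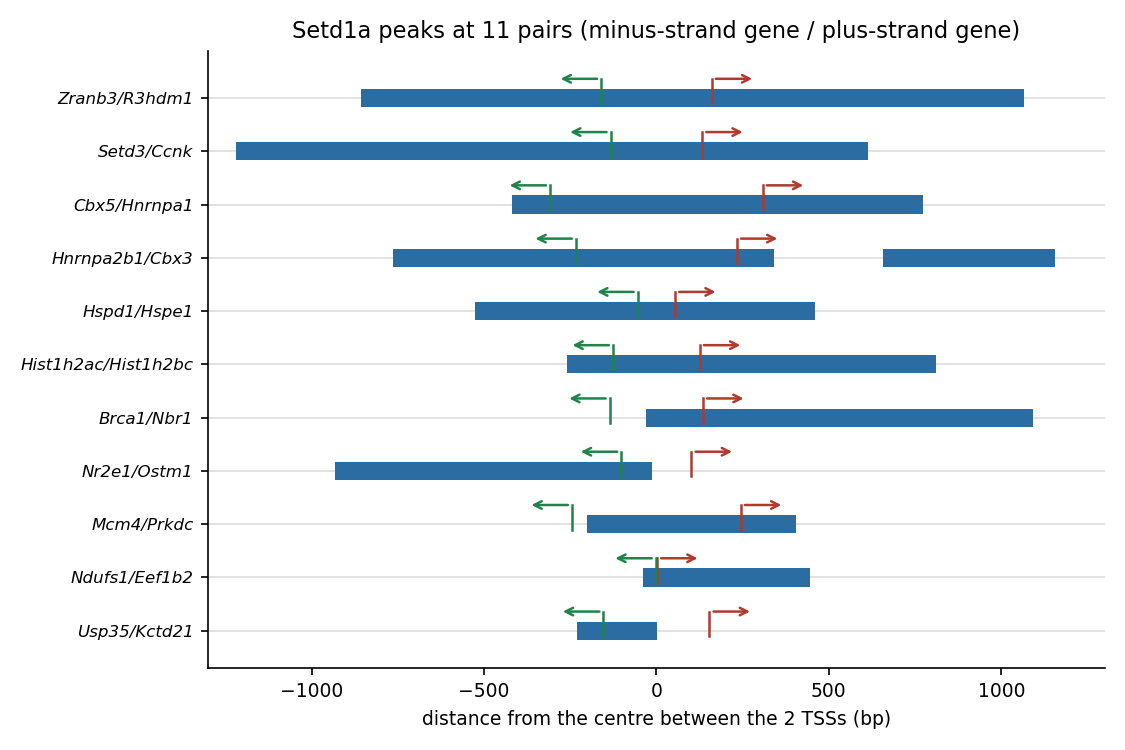
Setd1a peaks (blue bars) at 11 pairs, drawn to scale in bp from the centre between the TSSs, with arrows at the TSS of the minus-strand gene (green, pointing left) and of the plus-strand gene (red, pointing right). The peaks at Zranb3/R3hdm1 and Cbx5/Hnrnpa1 span both TSSs, those at Brca1/Nbr1 and Nr2e1/Ostm1 cover 1, and Hnrnpa2b1/Cbx3 has 2 peaks.

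The 639 peaks belonged to 607 gene pairs, and 31 of these pairs (5.11%) had 2 or more member peaks. In 23 of the 31 (74.2%, 56.8% to 86.3%) the peaks lay on opposite sides of the pair's centre, as at *Hnrnpk*/*Rmi1*, where peaks of 457 and 317 bp were 390 bp apart. *Hnrnpa2b1*/*Cbx3*, an RNA-binding protein and the heterochromatin protein HP1 gamma at a promoter long studied as a ubiquitously open element, had a peak of 1107 bp over both TSSs and another of 499 bp within *Cbx3*, 314 bp away. *Gart*/*Son*, a purine synthesis enzyme and a splicing speckle protein, had peaks of 534 and 327 bp on opposite sides of the centre. *Mboat7*/*Tsen34* was the only pair with 3 member peaks. Another peak lay within 1000 bp of 11.3% of all members (9.04% to 14.0%), against 8.27% of the single-gene peaks (7.39% to 9.23%).

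Of the members, 12 had coding TSSs of 3 named genes, and none had more. Chosen as examples after their values were seen, they included *Atf5*/*Il4i1*, with *Nup62* as the further gene and a peak of 1076 bp, and *Myl12a*/*Myom1*, with *Myl12b* and a peak of 1033 bp. In 65 members (10.2%) a gene of the pair was known only by a clone or model name. A noncoding TSS lay within 1000 bp of 5.79% of the members (4.23% to 7.88%) and of 20.5% of the single-gene peaks (19.2% to 21.9%).

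Protein-coding genes in an opposite-strand pair had a peak more often than other genes. A gene was called paired when a coding TSS of another gene on the opposite strand lay within 1000 bp of its own, which uses the annotation alone. A peak lay within 1000 bp of a coding TSS in 22.0% of all 20722 autosomal protein-coding genes. The share was 50.7% of the paired genes (1230 of 2425, 48.7% to 52.7%) and 18.2% of the others (3330 of 18297, 17.6% to 18.8%). The difference was 32.5 percentage points (95% Newcombe interval 30.5 to 34.6), with each gene counted as independent. Genes of a pair can share a peak, so this interval and the others over paired genes are too narrow. A paired gene also has its neighbour's promoter within reach, and no unpaired counterpart with a second promoter was counted. A single peak counts for both genes of a pair, so the pairs were also counted as units: 599 of 1233 annotated pairs (48.6%, 45.8% to 51.4%) had a peak within 1000 bp of both TSSs.

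CpG content moved with both measures. The CpG ratio, the observed over the expected number of CpG dinucleotides in 300 bp, was computed at the TSS of each gene, and the genes were divided into 3 equal groups at ratios of 0.328 and 0.765. Paired genes fell mostly into the top group, which held 1396 of them against 153 in the lowest. In the top group 58.4% of the paired and 39.3% of the unpaired genes had a peak, a difference of 19.1 points (16.2 to 22.0, with genes again counted as independent). In the middle group the shares were 44.3% and 16.1%, and in the lowest 17.6% and 2.87%. The paired share was thus the higher in each group, with a difference in the top group smaller than that over all genes. The level of transcription was not a term here, and its part in these shares was not tested.

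**Figure D4:**
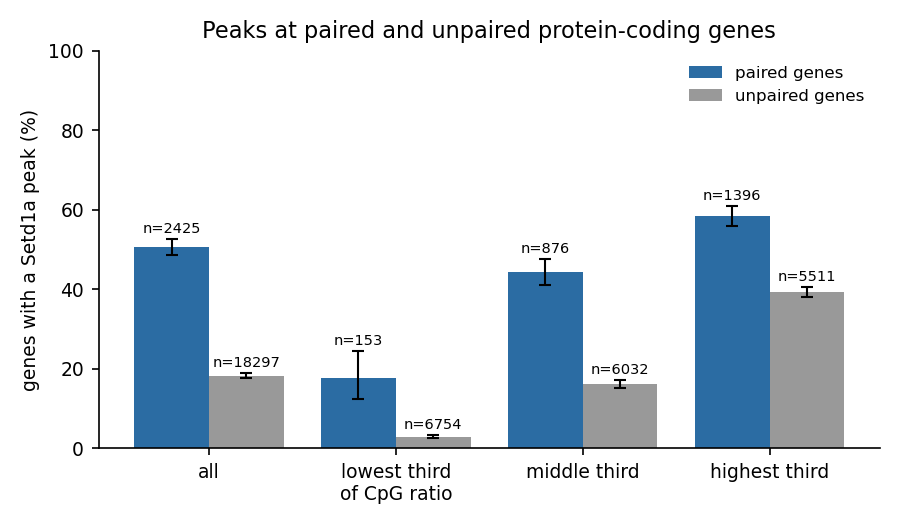
Share of protein-coding genes with a Setd1a peak within 1000 bp of a coding TSS, in percent, for paired (blue) and unpaired (grey) genes, over all genes and within the lowest, middle and highest group of CpG ratio at the TSS. Bars start at 0, error bars are 95% Wilson intervals and n is the number of genes; the paired share is 58.4% and the unpaired 39.3% in the highest group.

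Among the annotated pairs, order, distance and CpG content were each set beside the peaks. A peak was present at 50.2% of the 976 divergent pairs (47.1% to 53.3%) and at 42.4% of the 257 overlapping pairs (36.5% to 48.5%). Among the divergent pairs, the share by distance was 45.8% up to 100 bp, 53.7% at 101 to 200 bp, 60.2% at 201 to 300 bp, 53.3% at 301 to 500 bp and 44.2% at 501 to 1000 bp. Among the overlapping pairs it was 44.0% for an overlap of up to 100 bp, 45.3% at 101 to 300 bp and 38.8% at 301 to 1000 bp. The highest share was that of divergent pairs 201 to 300 bp apart (51.0% to 68.7%). Its interval met neither that of divergent pairs up to 100 bp apart (41.1% to 50.6%) nor that of overlaps of 301 to 1000 bp (29.7% to 48.7%). It overlapped the intervals of all the other distance classes, and a preferred distance was not tested. Pairs with a CpG ratio of at least 0.6 at their centre had a peak in 53.0% (49.9% to 56.0%) and the other pairs in 24.3% (18.8% to 30.9%). The median ratio at the centre was 0.890 in pairs with a peak and 0.811 in pairs without.

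The member peaks had the same median CpG content as peaks at single genes. In 300 bp at the peak midpoint the CpG ratio had a median of 0.832 in both, with quartiles of 0.714 and 0.946 in the members, against 0.214 in peaks without a coding TSS. The ratio reached 0.6 in 87.6% of the members (84.9% to 90.0%) and in 83.7% of the single-gene peaks (82.5% to 84.9%). The GC content had a median of 63.7% in the members and 65.7% in the single-gene peaks. In the overlapping members the median ratio was 0.833.

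Motif content was counted in the same 300 bp, as exact matches on either strand. The GC box was present in 62.1% of the members (58.3% to 65.8%), in 67.1% of the single-gene peaks (65.5% to 68.7%) and in 47.1% of all promoters, 300 bp around the TSS of each protein-coding gene. With windows at the pair centre and at the TSS, it was present in 69.6% of the members and 75% of the single-gene peaks. The Ets motif was present in 20.3% of the members (17.4% to 23.6%), in 14.1% of the single-gene peaks (13.0% to 15.3%) and in 11.7% of all promoters. The intervals of the members and the single-gene peaks did not meet for Ets. With the window at the pair centre, the Ets motif was present in 26.5% of annotated pairs with a peak and 25.9% of those without, and in 18.1% of the single-gene peaks with the window at their TSS. The CCAAT box was as frequent in members (32.6%) as in single-gene peaks (32.1%), within counting error, and was present in 35.9% of all promoters. With windows at the pair centre and at the TSS, it was present in 39.4% of the members and 37.4% of the single-gene peaks. TATAAA was present in 2.19% of the members and 3.70% of the single-gene peaks in the window at the peak midpoint, and in 10.6% of all promoters, where the window lies at the TSS. With the window at the pair centre it was present in 3.91% of the members, and at the TSS in 3.73% of the single-gene peaks.

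The remaining motifs were rarer. The E-box was present in 7.51% of the members, 9.25% of the single-gene peaks and 7.43% of all promoters. In the same order, the Yy1 motif was present in 6.42%, 4.97% and 3.57%, the E2f motif in 5.48%, 4.34% and 2.98%, and the Nrf1 core in 5.16%, 5.09% and 3.33%. The Creb/Atf site was present in 3.60%, 2.86% and 2.35%, and the Znf143 motif in 0.782%, 0.665% and 0.758%. These windows lay at the peak midpoint, except those of all promoters, which lay at the TSS. With windows at the pair centre of the members and at the TSS of the single-gene peaks, the E-box was in 10.2% and 10.3%. In that order, the shares were 8.45% and 6.47% for Yy1, 4.54% and 4.71% for E2f and 7.04% and 6.07% for Nrf1. For Creb/Atf they were 5.16% and 3.70%, and for Znf143 1.10% and 0.665%. At the pair centre the Nrf1 core was found in 7.35% of pairs with a peak (5.52% to 9.72%) and in 3.47% of pairs without (2.30% to 5.20%), and these intervals did not meet. The GC box was found in 71.3% of pairs with a peak (67.5% to 74.8%) and in 57.9% without (54.0% to 61.7%). Both motifs contain a CpG, and the pairs with a peak had the higher CpG ratio.

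The genes of the pairs were counted in 15 functional lists. Over all protein-coding genes, 11.7% were paired and 5.85% were part of the pair of a member peak, and among paired genes 50.7% had a peak. Several housekeeping lists were paired far more often than that, and pairing is a property of the annotation. Of 82 genes of the mitochondrial ribosome 42.7% were paired, of 104 genes of oxidative phosphorylation 39.4%, of 67 replication-dependent histone genes 40.3% and of 111 DNA repair genes 38.7%. Of their paired genes, 54.3% (38.2% to 69.5%), 63.4% (48.1% to 76.4%), 44.4% (27.6% to 62.7%) and 44.2% (30.4% to 58.9%), in the same order, had a peak, and each of these intervals includes the 50.7% of all paired genes.

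**Figure D5:**
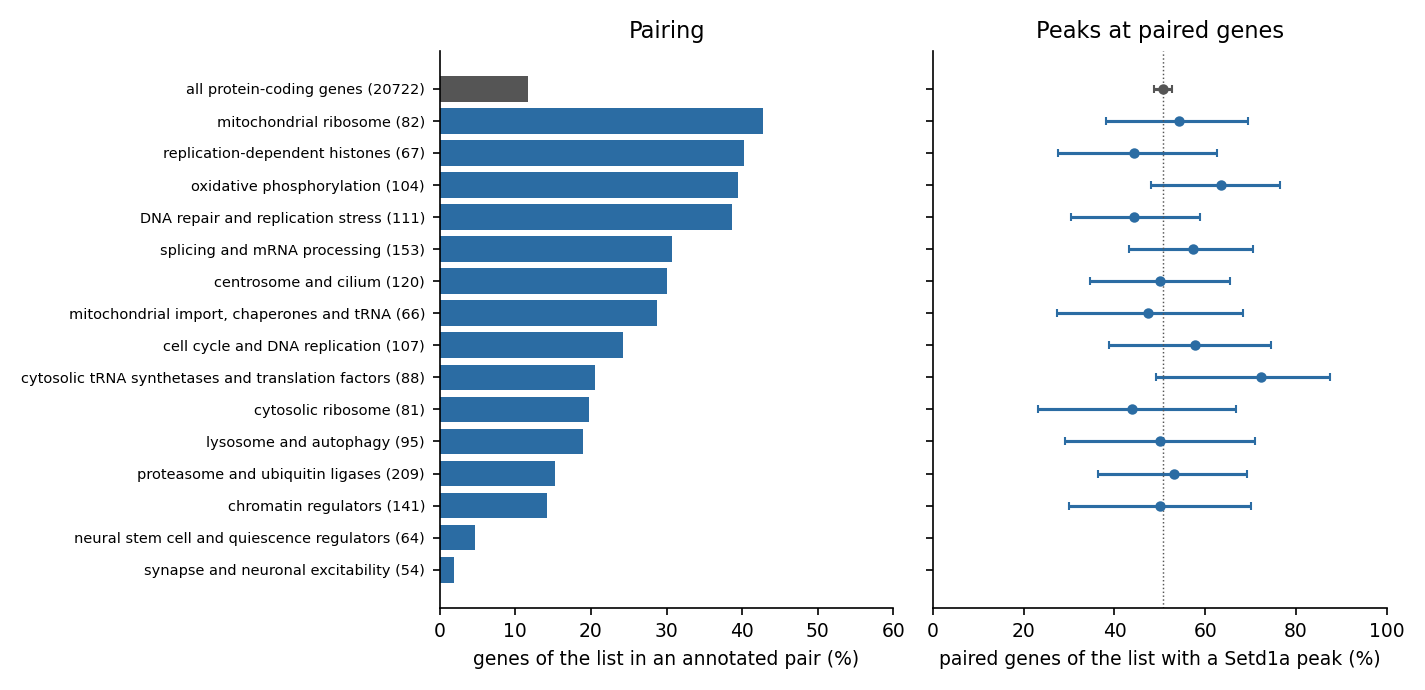
Left, share of the genes of each list that lie in an annotated opposite-strand pair, in percent, with the number of genes in brackets and all protein-coding genes in grey. Right, share of the paired genes of each list with a Setd1a peak, in percent, with 95% Wilson intervals, for lists with at least 10 paired genes; the dotted line is the 50.7% of all paired genes, which lies within each list's interval.

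Of the 15 lists, oxidative phosphorylation and the mitochondrial ribosome had the largest shares of genes in a member pair. In the pair of a member peak were 25 of the 104 genes of oxidative phosphorylation (24.0%) and 19 of the 82 of the mitochondrial ribosome (23.2%), against 5.85% of all genes. The widest peaks of the former list lay at *Vmac*/*Ndufa11* (1552 bp) and *Esf1*/*Ndufaf5* (927 bp), with a complex I subunit and a complex I assembly factor, and at *Mrpl47*/*Ndufb5* (905 bp), where the genes of a mitochondrial ribosomal protein and a complex I subunit overlap by 20 bp. A subunit of ATP synthase followed with *Atp5h*/*Kctd2* (817 bp). Among the mitochondrial ribosome pairs were *Abhd8*/*Mrpl34* with 865 bp, and *Mrpl43*/*Twnk* with 733 bp at chr19:45006062-45006794, where *Twnk* encodes the helicase of mitochondrial DNA replication. Of 66 genes for mitochondrial import, chaperones and tRNA, 9 (13.6%) were in a member pair. They included *Hspd1*/*Hspe1*, the chaperonin subunits Hsp60 and Hsp10, which work as a complex and whose TSSs, 108 bp apart, were covered by a peak of 987 bp at chr1:55087551-55088537.

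Of the DNA repair genes 19 of 111 (17.1%) and of the cell cycle and DNA replication genes 13 of 107 (12.1%) were in a member pair, against 5.85% of all genes. *Brca1*, which acts in homologous recombination, and the autophagy receptor gene *Nbr1* had a peak of 1120 bp at chr11:101551985-101553104 that covered the TSS of *Nbr1* and started 106 bp from that of *Brca1*. *Atm*, the kinase that signals double-strand breaks, and *Npat*, the coactivator of histone genes, had a peak of 742 bp over both TSSs at chr9:53536711-53537452, a pair chosen for its known roles after its values were seen. *Osgep*/*Apex1*, with the endonuclease of base excision repair, had a peak of 1145 bp over both TSSs. *Mcm4*/*Prkdc*, a subunit of the replicative helicase and the kinase of end joining, had a peak of 605 bp with its midpoint between TSSs 489 bp apart. *Aurka*/*Cstf1*, the mitotic kinase Aurora A and a polyadenylation factor, had a peak of 892 bp that covered the TSS of *Cstf1* and not that of *Aurka*, 106 bp outside its edge.

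Genes of RNA processing and translation had some of the widest member peaks. Of 153 splicing and mRNA processing genes 27 (17.6%, against 5.85% of all genes) were in a member pair, at 29 peaks with a median width of 732 bp. Wide peaks of this list lay at *Hnrnph3*/*Pbld2* (1406 bp), *Plekhj1*/*Sf3a2* (1400 bp) and *Gucd1*/*Snrpd3* (1230 bp), which hold an hnRNP, a U2 snRNP subunit and a core Sm protein. Of 88 cytosolic tRNA synthetases and translation factors 13 (14.8%) were in a member pair, with *Txndc9*/*Eif5b* at 1625 bp, *Eif2b4*/*Snx17* at 1524 bp and *S100pbp*/*Yars* at 1376 bp, each over both TSSs. Of 18 paired genes of this list 13 had a peak (72.2%, 49.1% to 87.5%). The cytosolic ribosome had 8 of 81 genes (9.88%) in a member pair, the widest at *Rps18*/*Vps52* with 1091 bp.

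The lists of chromatin, ubiquitin and lysosome genes had shares of 7.09% to 9.47%, beside the background of 5.85%. Of 141 chromatin regulators 10 (7.09%) were in a member pair, and their 11 peaks had a median width of 867 bp. Besides *Setd3*/*Ccnk* and *Hnrnpa2b1*/*Cbx3*, they included *Brd2*/*H2-DMa* with 1289 bp, where *Brd2* reads acetylated histones, *Cbx5*/*Hnrnpa1* with 1190 bp over both TSSs, where *Cbx5* encodes HP1 alpha, and *Ccdc77*/*Kdm5a* with 1080 bp, where *Kdm5a* encodes a demethylase of the same H3K4 mark that Setd1a writes. Both of these HP1 genes shared their promoter with an hnRNP gene. The list counts *Setd3*, described above as an actin histidine methyltransferase, and its peak of 1835 bp was the widest of the 11. Of 209 proteasome and ubiquitin genes 17 (8.13%) were in a member pair, among them *Peg3*/*Usp29*, an imprinted pair, with a peak of 1395 bp. For lysosome and autophagy genes the count was 9 of 95 (9.47%), with *Atp6v1d*/*Eif2s1* at 997 bp, and for centrosome and cilium genes 18 of 120 (15.0%), with *Cep57*/*Fam76b* at 1479 bp and *Cep57l1*/*Sesn1* at 1244 bp.

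The histone pairs had 7 member peaks, 337 to 1071 bp wide, in 6 pairs that were all divergent. Of 67 replication-dependent histone genes 12 (17.9%) were in a member pair, against 5.85% of all genes. The peak of *Hist1h2ac*/*Hist1h2bc*, 1071 bp at chr13:23683813-23684883, covered both TSSs and reached into *Hist1h2bc*, and the peak of *Hist1h2an*/*Hist1h2bp* (867 bp) covered the TSS of *Hist1h2bp* and missed that of *Hist1h2an* by 3 bp. The peaks of *Hist1h2ag*/*Hist1h2bj* (486 bp) and of *Hist1h2bl*/*Hist1h2ai* (437 bp) covered both TSSs with the midpoint in the AT-rich stretches between them, and a further peak of 337 bp started near the end of *Hist1h2ai* and also had a TSS of *Hist1h3h* within 1000 bp. The peaks of *Hist1h2ae*/*Hist1h2bg* (538 bp) and *Hist1h2bh*/*Hist1h3f* (362 bp) covered neither TSS. Histone genes are near-identical copies and the reads were mapped uniquely, so which copies carry a peak may depend on how far their sequences can be told apart, and this was not tested.

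Few genes tied to the neural lineage were paired. Of 64 neural stem cell and quiescence regulators 3 were paired (4.69%), against 11.7% of all protein-coding genes. In a member pair were 2 (3.12%, against 5.85%), although 31 of the 64 had a peak (48.4%, against 22.0%). The first was *Nr2e1*, the orphan receptor Tlx required for adult neural stem cells, which lies 203 bp from *Ostm1*, which encodes a subunit of a lysosomal chloride transporter. Its peak of 919 bp at chr10:42582801-42583719 covered the TSS of *Nr2e1*, missed that of *Ostm1* by 116 bp and had a CpG ratio of 0.504. The second was *Nfia*, a glial transcription factor, with a peak of 569 bp over neither TSS. Of 54 synapse and excitability genes 1 was paired, *Nlgn2*, which encodes an adhesion protein of inhibitory synapses, and its peak was 849 bp wide. The remaining peaks of these neural lists lay at unpaired genes.

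In 32 members both genes were in a list, and in 9 of these 32 both were in the same list: the 7 histone peaks, *Hspd1*/*Hspe1* and *Fbxo44*/*Fbxo2*, paralogous F-box genes. In a further 151 members (23.6%) exactly 1 gene was in a list. Of the genes that the study names for this experiment, Setd1a, *Bhlhe40*, *Bhlhe41*, *Atr*, *Dazap2* and *Fbxl5* lie on autosomes and none was paired. All of these except Setd1a had a peak of their own within 1000 bp of a coding TSS.

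The window of 1000 bp decided which peaks were counted at the margin. Both strands had a coding TSS under the peak in 332 of the 639 members (52.0%), within 100 bp of it in 433 (67.8%) and within 500 bp in 581 (90.9%). The 5 members closest to the limit needed 961 bp at *Aph1b*/*Gm10647*, 967 bp at *Mus81*/*Cfl1*, 969 bp at 1 peak of *Mboat7*/*Tsen34*, 975 bp at *Aamdc*/*Rsf1* and 978 bp at *Cnppd1*/*Retreg2*. The 5 closest peaks outside it needed 1026 bp at *Fbxl15* and *Psd*, 1035 bp at *Trp53* and *Wrap53*, 1042 bp at *Tshz1* and *Zadh2*, 1050 bp at *Gpr108* and *Trip10* and 1058 bp at *Caskin2* and *Tsen54*. Their widths, 446 to 1161 bp, overlapped those of the 5 inside, 238 to 1621 bp. The share of member peaks among all peaks of a chromosome ran from 4.48% on chromosome 18, with 9 members, to 13.0% on chromosome 13, with 37.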

How the data were processed

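The authors deposited 1 list of peaks, each of them called in both Setd1a libraries, with start and end positions in bp. Per the labels and the study's methods, reads were trimmed, mapped uniquely to mm10, filtered by mapping quality and called per replicate with default parameters. The submitters' processing notes name bcl2fastq 2.17.1.14, Trimmomatic 0.32, Bowtie2 2.1.0, SAMtools 0.1.18 and MACS2 2.2.8. Whether the IgG library served in peak calling, and which library's edges a shared interval took, are not given in the sources used here. A list of positions carries no strength of binding, and regions that cannot be mapped uniquely have no peak.

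Peaks were placed on GENCODE M21 transcripts of type protein_coding in GRCm38, with all 6911 autosomal peaks inside their chromosomes. A peak was described by the opposite-strand pair of TSSs in its window that lay nearest each other. The distance from the peak midpoint only broke ties. Tables were made with pandas 2.3.3 and numpy 2.4.6 in Python 3.11.15, intervals with scipy 1.17.1, sequences with samtools 1.23.1 and pysam 0.24.0, and figures with matplotlib 3.10.9. Shares have Wilson and differences Newcombe intervals at 95%, and no significance test was run, since the list has no replicates. The placement of peaks was tested on simulated data. Named pairs were those with both genes in lists, the extremes of width and distance, pairs with several peaks, the genes the study names, and 2 to 4 examples per list by width. The members and lists were chosen with earlier results of these data known. The windows, TSS sets, minimum width, merging of peaks, pair distance, sequence window and CpG groups were varied, and the removal of clone-named genes and the CpG split at 0.6 were added after seeing the data. Values for a few genes and 1 sequence are not reported here.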

Additional observations from a re-analysis of the deposited data

How the results depend on the processing

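The direction of the paired against unpaired difference was the same under every alternative run. With both TSSs required under the peak (window 0 bp), 332 members remained, with 100% over both TSSs by construction and a median width of 736 bp. The share over both TSSs was 54.4% with a window of 500 bp, 45.4% with 2000 bp, 54.2% for peaks at least 300 bp wide and 55.3% after merging, and the median width was 639 bp and 640 bp in the last 2. The divergent share was 68.8% with 1 TSS per gene. Of paired genes, 36.9% had a peak with a window of 0 bp and 48.2% with pairs within 2000 bp, and 17.6%, 44.3% and 58.4% from the lowest to the highest CpG group. Of unpaired genes, the share was 13.4% at 0 bp, 18.9% at 2000 bp, 17.0% with 1 TSS per gene, 19.0% with pairs within 300 bp, and 2.87%, 16.1% and 39.3% by CpG group. The median GC content was 62.4% over whole peaks and 62.7% in 600 bp. Each motif was found in more members in 600 bp, as a longer window holds more matches. Dropping clone-named genes, added after seeing the data, left 574 members. No replicate could be left out, because the list combines both libraries. No paired analysis was possible because both replicates stand in a single set of intervals. With depth unknown, absence from the list does not show that Setd1a is absent.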
